A study of Schizosaccharomyces pombe with 8 samples.

Results

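The gene ptc2 (SPCC1223.11) of the fission yeast Schizosaccharomyces pombe encodes a serine/threonine phosphatase of the PP2C type. It was chosen by its small RNA levels in this table, which were high in one mutant strain and low in wild type. It is represented by 3 of the 17962 rows in the deposited table: the transcript (chromosome 3, 1863661 to 1866637, plus strand, 2977 nt), its 5′ UTR (1863661 to 1863756, 96 nt) and its 3′ UTR (1864870 to 1866637, 1768 nt). The rows were found by their identifier. Since measured values led to the choice, the levels below are a description and carry no test.

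Small RNAs of 18 to 28 nt were sequenced from 8 strains, with 1 library per strain. All 8, wild type included, are labelled ade6-hp+. As far as the study is known, this is a hairpin construct that makes small RNA against ade6, an enzyme gene of purine synthesis whose loss turns colonies red, and the question was how Paf1 complex mutants respond to that small RNA. The other alleles are Paf1Δ and Leo1Δ, which are gene deletions, and the point alleles Leo1-W157Stop, Paf-1Q264Stop, Paf1-G104R, Rot1-Q472Stop and Cdc73-G313R. The wild-type strain (wt) has no allele label besides ade6-hp+. Cells grew in rich YES medium at 30 °C to an OD600 of 0.5. With 1 library per strain, no difference between strains has a replicate check.

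In fission yeast, small interfering RNAs are cut from double-stranded RNA by Dicer and guide Argonaute to matching transcripts, where silent chromatin can form. They are best known from the repeats around centromeres. The Paf1 complex, to which Paf1, Leo1 and Cdc73 belong, travels with RNA polymerase II and limits this kind of silencing at genes. Ptc2 works with the related phosphatases Ptc1 and Ptc3 to switch off Sty1, the stress-activated MAP kinase of this yeast.

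The coding part of ptc2 lies between the UTR rows, at 1863757 to 1864869 on chromosome 3. The RefSeq annotation gives it 1 exon and 370 residues. It starts the gene at 1863681, against 1863661 in the table. The largest row ends of the table equal the lengths of chromosomes 1, 2 and 3 in that reference. The first and last 30 bases of the coding part, from the RefSeq genome ASM294v3, are shown because they are the boundaries between the UTR rows and the coding part compared below, with the start and stop codons in capitals.
start of coding part, chr3:1863757-1863786, plus strand: ATGggccaaacactctcagaacccgtactc
end of coding part, chr3:1864840-1864869, plus strand: attgcctacgatcgctattaccttcatTAA
Reads at ptc2 can be placed without ambiguity at most lengths. All 2956 stretches of 22 nt in the transcript occur once in the reference genome, as do 2945 of 2960 stretches of 18 nt.

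Levels in the table are read here as log2(n + 8), from their values, where n is a read number per length scaled to the same total in each library, so a row without reads stands at 3. Summed over all rows, recovered read numbers ran from 917880 in Cdc73-G313R to 3156344 in Paf-1Q264Stop among the mutants, against 6422566 in wt. The share of the scaled total at structural RNA rows was 9.25% to 62.02% in the mutants, and 5.11% in wt. The strand of counting was looked at around tRNA genes. Rows opposite a tRNA gene had a median of 7778 wt reads (7 rows), against 50.8 at rows on the same strand (6 rows) and 5.79 at the tRNA rows themselves (170 rows). Around tRNA genes, rows thus held mainly reads of the strand opposite to their label. If the same holds at ptc2, the reads of its rows are antisense to the gene, which was not tested. The table has 0 rows on the minus strand across ptc2, so the strand could not be checked at ptc2 itself. Strands named below are those of the row labels. In the library labelled Leo1Δ, leo1 without its UTRs held 2 reads where the wt level predicted 29. The paf1 gene had 0 in the library labelled Paf1Δ, with 1.47 predicted, too few to show a loss. Reads were also looked at over leo1, paf1, cdc73 and prf1, a partner of the complex, and not over any gene named rot1. In 3 libraries of point alleles the gene with raised reads among these was not the labelled one. That labelled Paf1-G104R held 823 reads over prf1, against 1 in wt. That labelled Cdc73-G313R held 26 over paf1, against 7 in wt, and that labelled Rot1-Q472Stop held 149 over cdc73, against 8 in wt. In the other libraries of point alleles the labelled gene was raised. Leo1-W157Stop held 519 over leo1, against 62 in wt, and Paf-1Q264Stop held 182 over paf1, against 7 in wt. Strain names below are those of the library labels.

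Small RNA at ptc2 was abundant in the Leo1Δ library, lower in the other mutants and near the floor in wt. The ptc2 transcript held 19042 reads in Leo1Δ, 241 in Paf-1Q264Stop, 238 in Paf1-G104R, 234 in Paf1Δ, 65 in Leo1-W157Stop, 15 in Cdc73-G313R and 92 in Rot1-Q472Stop, against 44 in wt. Since depths differ, these numbers are set beside the levels. The log2 level was 11.40 in Leo1Δ, 6.36 in Paf1Δ, 5.08 in Paf1-G104R, 5.02 in Paf-1Q264Stop, 4.56 in both Leo1-W157Stop and Rot1-Q472Stop and 3.55 in Cdc73-G313R, against 3.45 in wt. Leo1Δ stood 5.04 above the next library, Paf1Δ, which stood 2.91 above wt. The floor compresses the second of these gaps. As level ratios, given below, the steps were 36.5 and 25.4, with intervals that overlap. Each mutant was at or above wt, although in Cdc73-G313R the difference was 0.10.

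**Figure D1:**
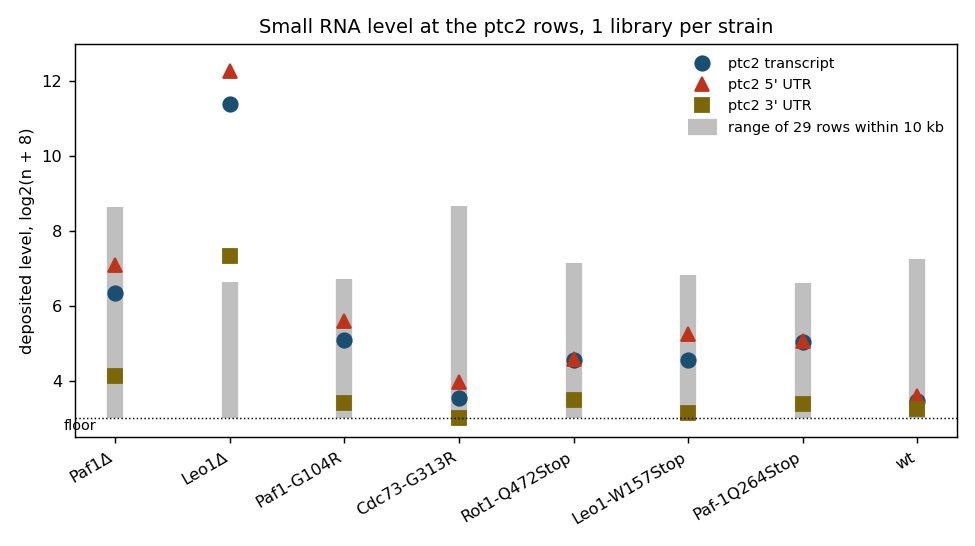
Deposited log2 levels of the ptc2 transcript, 5′ UTR and 3′ UTR (vertical axis) in each of 8 libraries (horizontal axis, mutants left and wt right). The grey bars span the lowest to the highest of 29 rows within 10 kb, and the dotted line is the floor of 3. The ptc2 transcript lies above the bar in Leo1Δ, at 11.40, and inside it in the other libraries.

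Level ratios to wt were computed from recovered reads, with 95% exact intervals that cover counting error only. The ratio at the ptc2 transcript was 926 (690 to 1275) in Leo1Δ and 25.4 (18.3 to 35.9) in Paf1Δ. It was 8.84 (6.38 to 12.5) in Paf1-G104R, 8.43 (6.09 to 11.9) in Paf-1Q264Stop, 5.39 (3.73 to 7.91) in Rot1-Q472Stop and 5.37 (3.61 to 8.06) in Leo1-W157Stop. These 6 intervals lie above 1. In Cdc73-G313R the ratio was 1.26 (0.652 to 2.31), an interval that includes 1. This ratio depends on the scaling, since structural RNA rows held 62.02% of the total in Cdc73-G313R and 5.11% in wt. With those rows left out of the total, the log2 difference was 0.65. The Cdc73-G313R library had a general shift, with a median difference of -2.002 over all rows at a level of at least 5 in the higher library. Relative to this shift ptc2 was higher by 2.10 on the log2 scale, against 0.10 as deposited. With a wt level of 3.45 and a floor of 3, ptc2 could not fall as far as the shift. Subtracting the shift could therefore only place it higher. The ptc2 3′ UTR, with 0 reads in Cdc73-G313R, also came out higher, by 1.74, so no rise is read from these values.

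Ordered by level, the strains fell into steps that were partly within counting error. Leo1Δ was 36.5 times Paf1Δ (32.1 to 41.7), and Paf1Δ was 2.88 times Paf1-G104R (2.39 to 3.46). Paf1-G104R and Paf-1Q264Stop did not differ beyond it, with a ratio of 1.05 (0.873 to 1.26), nor did Leo1-W157Stop and Rot1-Q472Stop, with 0.996 (0.713 to 1.38). Paf-1Q264Stop was 1.57 times Leo1-W157Stop (1.19 to 2.10), and Rot1-Q472Stop was 4.28 times Cdc73-G313R (2.46 to 7.95). Set against the median of the other 7 libraries in place of wt, Rot1-Q472Stop and Leo1-W157Stop were lower, each by -0.46 on the log2 scale. The deletion and the point allele of one gene stood far apart for leo1, where Leo1Δ was 173 times Leo1-W157Stop (135 to 224). For paf1 the step was smaller, with Paf1Δ at 3.01 times Paf-1Q264Stop (2.51 to 3.62).

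Measured against all transcripts, ptc2 stood near the top of the table in Leo1Δ and in its middle in wt. Of 5086 transcript rows it had the level of rank 5 in Leo1Δ, rank 66 in Paf1Δ and ranks 262 to 740 in the other mutants, against rank 2589 in wt. It took 2.19% (2.16 to 2.22) of all reads at transcript rows in Leo1Δ and 0.101% (0.0886 to 0.115) in Paf1Δ, against 0.00330% (0.00240 to 0.00443) in wt. By difference from wt, the ptc2 5′ UTR and transcript had ranks 3 and 4 of 17962 rows in Leo1Δ. The rows above them were the 5′ UTR and the transcript of bub1, a spindle checkpoint gene next to ade6. In Paf1Δ the ptc2 transcript had rank 64, and in Paf1-G104R and Paf-1Q264Stop ranks 70 and 69.

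A row was counted as higher when it reached a level of 5 in either library and differed by at least 1 on the log2 scale. By that rule the ptc2 transcript was higher in 4 mutant libraries, its 5′ UTR in 5 and its 3′ UTR in 1. Levels are per length, so the 5′ UTR of 96 nt can reach 5 on few reads. In Leo1-W157Stop it did so on 4 reads, against 2 in wt, while the transcript with 65 reads stayed below. In Leo1Δ all 3 ptc2 rows were higher, where 5.08% of all rows past the level were. In Paf1Δ the transcript and the 5′ UTR were, against 22.3% of all rows. The same pair was higher in Paf1-G104R, against 4.58%, and in Paf-1Q264Stop, against 3.8%. In Leo1-W157Stop the 5′ UTR alone was, against 8.73%. In Rot1-Q472Stop and Cdc73-G313R no ptc2 row reached the level of 5, where 8.37% and 3.92% of rows past it were higher. By the same rule 0 ptc2 rows were lower in any mutant. Of all rows past the level, 29.6% were lower in Leo1Δ, 19.8% in Paf1Δ, 9.79% in Paf1-G104R, 12.6% in Paf-1Q264Stop, 32.9% in Leo1-W157Stop, 74.9% in Cdc73-G313R and 26.3% in Rot1-Q472Stop. Since these contrasts led to the choice of ptc2, nothing is read from these shares.

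The 5′ UTR followed the transcript. It held 1138 reads in Leo1Δ, 13 in Paf1Δ, 12 in Paf1-G104R, 8 in Paf-1Q264Stop, 4 in Leo1-W157Stop, 1 in Cdc73-G313R and 3 in Rot1-Q472Stop, against 2 in wt. Its log2 level was 12.29 in Leo1Δ and 7.08 in Paf1Δ, against 3.60 in wt. With 2 wt reads its ratios are imprecise, at 1218 (336 to 10070) in Leo1Δ, 31.1 (7.03 to 283) in Paf1Δ, 9.80 (2.18 to 90.2) in Paf1-G104R and 6.15 (1.23 to 59.5) in Paf-1Q264Stop. In Rot1-Q472Stop and Cdc73-G313R the interval of the ratio included 1.

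The 3′ UTR, which is longer than the coding part, held few reads outside Leo1Δ. It had 644 reads in Leo1Δ, 18 in Paf1Δ, 14 in each of Paf1-G104R and Paf-1Q264Stop, 2 in Leo1-W157Stop, 0 in Cdc73-G313R and 12 in Rot1-Q472Stop, against 14 in wt. The log2 level was 7.34 in Leo1Δ and 4.14 in Paf1Δ, against 3.26 in wt. The ratio was 98.5 (58.3 to 181) in Leo1Δ and 6.14 (2.89 to 13.3) in Paf1Δ. In the other 5 mutants the interval included 1. In Cdc73-G313R the wt level predicted 3.79 reads, too few to show a loss.

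Subtracting the reads of both UTR rows left those over the 1113 nt coding part, which also include reads that cross its ends. They numbered 17260 in Leo1Δ, 219 in Paf-1Q264Stop, 212 in Paf1-G104R, 203 in Paf1Δ, 59 in Leo1-W157Stop, 14 in Cdc73-G313R and 77 in Rot1-Q472Stop, against 28 in wt. The coding part thus held between 83.7% and 93.3% of the ptc2 transcript's reads in the mutants, against 63.6% (47.8 to 77.6) in wt. Ratios to wt over the coding part were 1320 (913 to 1986) in Leo1Δ and 34.6 (23.3 to 53.4) in Paf1Δ. In the point alleles other than Cdc73-G313R they ran from 7.09 (4.55 to 11.4) in Rot1-Q472Stop to 12.4 (8.32 to 19.1) in Paf1-G104R. In Cdc73-G313R the ratio was 1.85 (0.90 to 3.63).

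In each mutant library and in wt the level per length was higher over the coding part than over the 3′ UTR. The rows give totals, so where along the gene it drops is not resolved. In Leo1Δ there were 1185 reads per 100 nt in the 5′ UTR, 1551 in the coding part and 36.4 in the 3′ UTR. The density over the coding part was 42.6-fold that of the 3′ UTR (39.4 to 46.1) in Leo1Δ. It was 17.9-fold (11.1 to 30.8) in Paf1Δ, 24.1-fold (14.0 to 44.8) in Paf1-G104R, 24.8-fold (14.5 to 46.2) in Paf-1Q264Stop and 10.2-fold (5.51 to 20.6) in Rot1-Q472Stop. It was 46.9-fold in Leo1-W157Stop, where 2 reads in the 3′ UTR left a wide interval (12.4 to 396), and the 3′ UTR of Cdc73-G313R held 0 reads. In wt the density over the coding part was 3.18 times that of the 3′ UTR (1.62 to 6.53). The share of ptc2 reads that lay in the 3′ UTR was 3.38% (3.13 to 3.65) in Leo1Δ and 7.69% (4.62 to 11.9) in Paf1Δ, against 31.8% (18.6 to 47.6) in wt. The 5′ UTR and the coding part were closer, with a 5′ UTR density 0.764 times that of the coding part in Leo1Δ (0.719 to 0.812). It was 0.424 times in Paf-1Q264Stop (0.181 to 0.849), and in each other library the interval included 1. The GC content is 45.4% in the coding part, 33.3% in the 5′ UTR and 32.7% in the 3′ UTR, and its part in the difference was not tested.

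**Figure D2:**
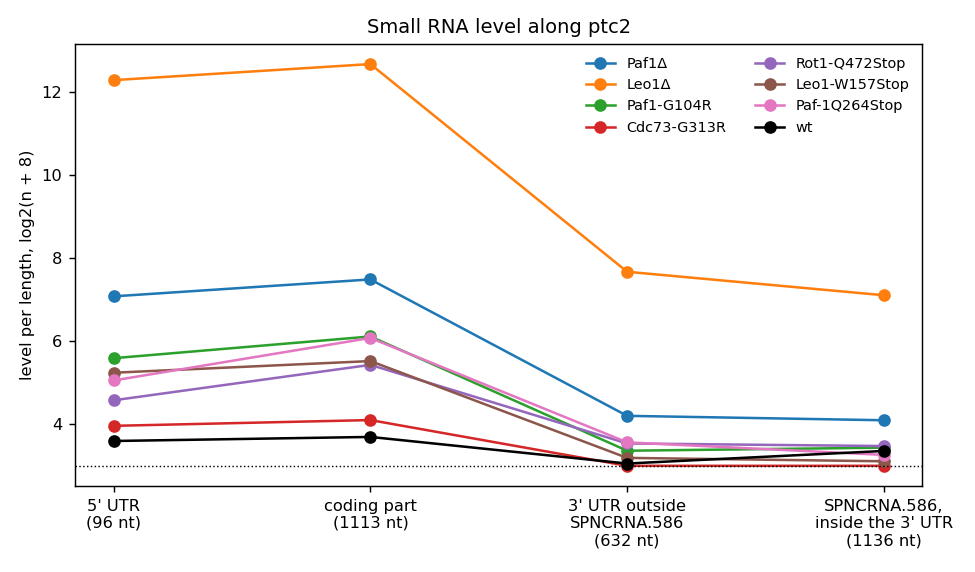
Level per length (vertical axis, log2(n + 8)) in 4 parts of ptc2 (horizontal axis) for each of 8 libraries. Lines join values of one library, and the dotted line is the floor of 3. In Leo1Δ the coding part stands at 12.68 and both parts of the 3′ UTR below 8, and in wt all 4 parts lie below 4.

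A non-coding RNA row, SPNCRNA.586 (1865286 to 1866421, plus strand), lies inside the ptc2 3′ UTR and shares its reads. It held 350 reads in Leo1Δ and 11 in Paf1Δ, against 13 in wt. The 632 nt of 3′ UTR outside it held 294 reads in Leo1Δ and 7 in Paf1Δ, against 1 in wt. Thus 13 of the 14 wt reads of the 3′ UTR lay in SPNCRNA.586, whereas in Leo1Δ the density outside it was 1.51 times that inside (1.29 to 1.77). The reference has a further non-coding RNA on the minus strand, SPNCRNA.7528 (1865612 to 1866730), which is not a row of the table. Whether reads from it are among those of the ptc2 3′ UTR was not tested.

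In Leo1Δ the ptc2 transcript stood above every other row near it. The 29 other rows within 10 kb, 13 on the plus strand and 16 on the minus strand, had levels between 3 and 6.63 in Leo1Δ, with a median of 3.75, and between 3 and 7.25 in wt, with a median of 3.40. In Leo1Δ 0 of the 29 stood above the ptc2 transcript and in each other mutant 4 or 5 did, against 14 of 29 in wt. The highest local row was at 8.63 in Paf1Δ and at 8.68 in Cdc73-G313R, in both the eaf1 3′ UTR. The ptc2 transcript lay above the local median by 7.65 on the log2 scale in Leo1Δ, 2.80 in Paf1Δ, 1.65 in both Paf1-G104R and Paf-1Q264Stop, 1.18 in Leo1-W157Stop, 0.41 in Cdc73-G313R and 1.09 in Rot1-Q472Stop, against 0.05 in wt. The lead depended on the window in the point alleles. With a window of 20 kb it was 0.89 in Paf-1Q264Stop, 0.71 in Leo1-W157Stop and 0.54 in Rot1-Q472Stop. The median difference of the 29 rows from wt was 0.00 in Leo1Δ. The floor compresses this median, and rows without reads in both libraries enter it as 0. Read ratios of neighbouring rows are given below. Of the 7 rows past the level in Leo1Δ against wt 2 were higher and 1 lower, where 5.08% of all rows past the level were higher and 29.6% lower.

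On the log2 scale, the nearest transcripts on both sides were within 1 of wt in Leo1Δ. Toward the start of ptc2, 1619 nt away, lies eaf1, which encodes a transcription elongation factor. Its level was 5.31 in Leo1Δ, against 4.95 in wt, while it stood at 7.15 in Paf1Δ and 7.20 in Cdc73-G313R. By read ratio eaf1 was at 1.38 times wt in Leo1Δ (1.12 to 1.71), an interval above 1. Nearly all of its reads fell in its 3′ UTR, which differed from wt by 2.45 in Paf1Δ and by 2.5 in Cdc73-G313R. A glutamine tRNA gene, SPCTRNAGLN.05, ends 458 nt before ptc2, and its row stood at 6.34 in Leo1Δ, against 7.25 in wt. On the other side, 278 nt away and facing ptc2, lies meu10, which is needed for spore wall formation. The meu10 transcript stood at 3.97 in Leo1Δ, against 3.83 in wt, a ratio of 1.23 (0.930 to 1.61). The part of its 3′ UTR nearest to ptc2 held 0 reads in Leo1Δ, against 10.5 in wt, and the interval of its level ratio ended at 0.853. The other part of the meu10 3′ UTR was at 0.567 times wt (0.239 to 1.21). The meu10 5′ UTR, with 64 reads in Leo1Δ against 87 in wt, was at 1.57 times wt (1.12 to 2.20). Of all transcripts with reads, 30.6% had an interval below 1 in Leo1Δ, so nothing local is read from the meu10 3′ UTR.

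Other rows of the window differed more. The transcript of drs1, an aminoacyl-tRNA synthetase gene 9.09 kb from ptc2, held 316 reads in Leo1Δ, against 123 in wt, a level ratio of 5.50 (4.45 to 6.83). It was at 4.0 to 6.14 times wt in the 4 point alleles other than Cdc73-G313R, so that its order over strains was not that of ptc2. In Paf1Δ the drs1 ratio was 1.59 (1.09 to 2.28), against 25.4 at ptc2. The transcript of cbf12, a transcription factor gene of the CSL family that starts 3.8 kb after ptc2, held 306 reads in Leo1Δ, against 66.2 in wt. Its ratio was 9.92 (7.58 to 13.2) in Leo1Δ and between 0.280 and 1.38 in the other mutants. Without its UTRs cbf12 held 261 reads in Leo1Δ and 6.18 in wt. Its level in Leo1Δ, 4.996, lay just under the 5 needed to be counted. The other 3 rows past that level were the uro1 3′ UTR, which stood at 5.002 in Leo1Δ and 5.45 in wt, the drs1 5′ UTR, at 5.18 from 4 reads in Leo1Δ and 3 from 0 reads in wt, and SPNCRNA.1236, at 3.89 in Leo1Δ and 5.07 in wt. Further transcripts of the window had read ratio intervals above 1 in Leo1Δ, where 4.75% of all transcripts with reads did. The dfr1 transcript held 23.5 reads, against 0 in wt, with a lower limit of 12.3. The aro2 transcript held 11, against 7 in wt, a ratio of 3.36 (1.19 to 10.2). The uro1 transcript was at 0.714 times wt (0.360 to 1.33), an interval that includes 1.

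**Figure D3:**
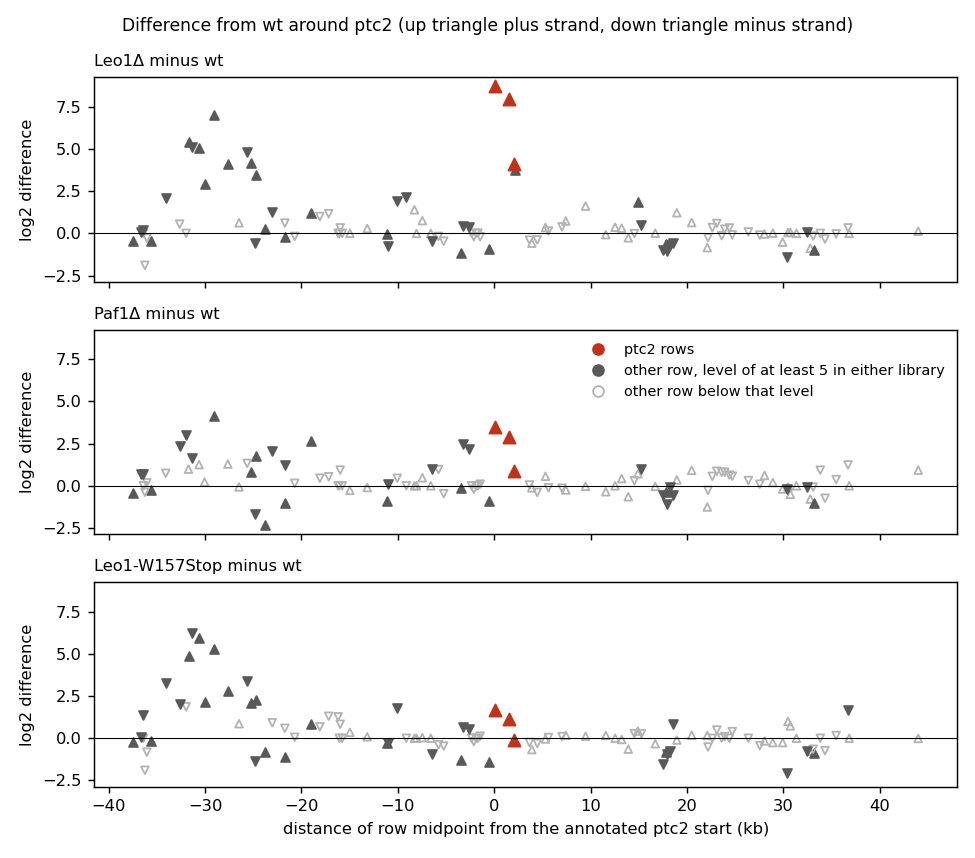
Difference from wt on the log2 scale (vertical axis) of each row within 40 kb of ptc2, by distance of its midpoint from the annotated ptc2 start (horizontal axis, kb), in Leo1Δ, Paf1Δ and Leo1-W157Stop. Triangles point up for the plus strand and down for the minus strand. Red marks are the ptc2 rows, dark marks other rows with a level of at least 5 in either library and open marks rows below it. In Leo1Δ the ptc2 transcript stands at 7.95, apart from a second group of high rows on the left that includes nmt1.

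Further along the chromosome, 24.1 kb before ptc2, lies nmt1, a thiamine-repressed gene. The nmt1 transcript held 671 reads in Leo1Δ, against 88 in wt, a ratio of 16.3 (13.1 to 20.6), which is lower than that of ptc2. In Rot1-Q472Stop the order was the reverse, with 10.3 (8.15 to 13.2) at nmt1 and 5.39 (3.73 to 7.91) at ptc2. In Leo1-W157Stop, Paf1-G104R and Paf-1Q264Stop the ratios of nmt1 were 6.77 (5.20 to 8.88), 11.6 (9.28 to 14.7) and 9.76 (7.78 to 12.4), with intervals that overlap those of ptc2. In Paf1Δ the nmt1 ratio was 4.61 (3.38 to 6.29), against 25.4 at ptc2. Of the 34 rows between nmt1 and ptc2, 13 were past the level in Leo1Δ, of which 4 were higher and 1 lower, where 5.08% and 29.6% of all rows past the level were. The highest difference among the 34 was 2.18, at the drs1 5′ UTR, against 7.95 at the ptc2 transcript and 3.45 at the nmt1 transcript. The ade6 transcript lies 545.6 kb before ptc2. Its level was 16.18 in Leo1Δ, against 14.64 in wt, both above the 11.40 of ptc2 in Leo1Δ. In Leo1Δ the ade6 transcript thus differed from wt by 1.53 on the log2 scale, against 7.95 at ptc2. The ade6 5′ UTR, at 5.52 in wt, differed by 7.60 in Leo1Δ. The adh1 transcript, of a fermentation gene, differed by 2.76. All of these differences share the wt library.

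The other phosphatase genes of the PP2C type had levels between 3 and 4.79 in all 8 libraries, so that 0 of 4 reached the level of 5 in any library. Of all 5086 transcripts 12.7% reached it in at least 1, so most transcripts lay below it. In Leo1Δ ptc1 held 6 reads, ptc4 13.5, ptc3 46 and azr1 68, against 13.2, 35, 214 and 123 in wt. The median log2 difference of the 4 in Leo1Δ was -0.04, and that of all transcripts -0.12. By read ratio ptc1 was at 3.67 times wt in Paf1Δ (1.44 to 9.07) and at 0.988 times in Leo1Δ (0.308 to 2.79). In ptc3, whose product also acts on Sty1, the level was lower than wt in each mutant, at 4.09 in Leo1Δ and 3.06 in Cdc73-G313R, against 4.79 in wt. In ptc4, whose product takes part in vacuole fusion, it was 3.36 in Leo1Δ and 3.51 in Paf1Δ, against 3.43 in wt. Reads at these genes are few, and all 4 lie within 2 of the floor.

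**Figure D4:**
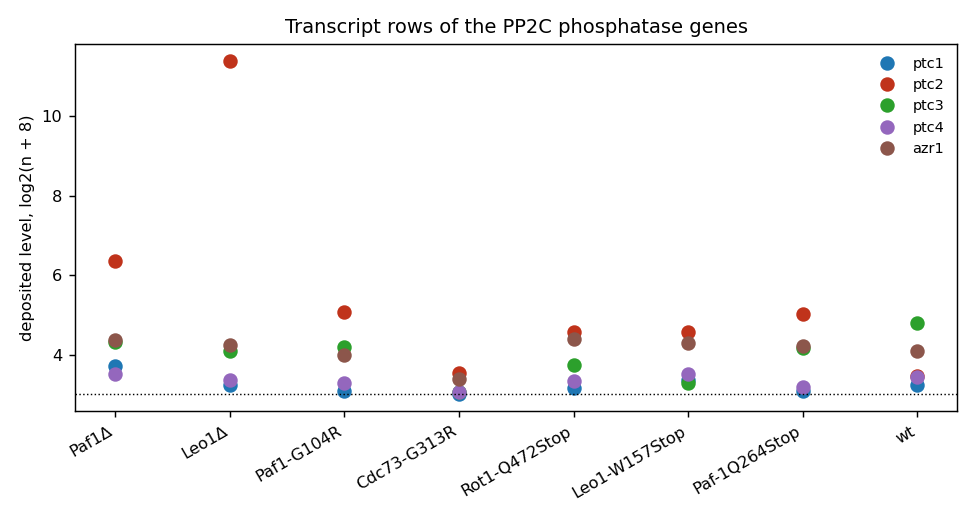
Deposited log2 level (vertical axis) of the transcript rows of 5 PP2C phosphatase genes in 8 libraries (horizontal axis, wt right). The dotted line is the floor of 3. In Leo1Δ ptc2 stands at 11.40 and the other 4 genes below 5.

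The genes of the Sty1 pathway, in which Ptc2 acts, lay below the level of 5, as most transcripts did. Of 14 genes (sty1, wis1, wis4, win1, mcs4, mpr1, mak1, mak2, mak3, pyp1, pyp2, atf1, pcr1 and srk1), 0 reached the level of 5 in any library. The median log2 difference of the 14 from wt was 0.00 in Leo1Δ, where that of all transcripts was -0.12, and 0.31 in Paf1Δ, where that of all transcripts was 0.15. The floor compresses these differences. By read ratio, 10 of the 14 had an interval above 1 in Paf1Δ and 0 below it, beside 32.7% and 9.72% of all transcripts with reads. These 10 held between 3 and 31 reads in Paf1Δ, and between 1 and 46 in wt, so some rest on very few reads. In Leo1Δ 1 of the 14 lay above 1 and 1 below, beside 4.75% and 30.6%. In Rot1-Q472Stop 4 lay above 1 and 1 below, beside 10.1% and 19.9%. In each other point allele 0 or 1 lay above 1, beside 1.68% to 9.71% of all transcripts with reads. In Paf1Δ pyp1 held 19 reads, against 7 in wt, a ratio of 13 (5.22 to 36.5), an interval that includes the 25.4 of ptc2. The 4 of highest mean level were wis4, a kinase upstream of Sty1, between 3.16 and 4.51, sty1 between 3.57 and 4.30, pyp1, a phosphatase of Sty1, between 3.13 and 4.13, and mpr1, a phosphorelay protein, between 3.10 and 3.42.

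The transcripts most like ptc2 over the 8 libraries were found by Pearson's r of the log2 levels, among 644 transcripts outside the 10 kb window with a level of at least 5 in any library. The first 5 were gal10 (r = 0.97), an epimerase gene of galactose use, chr4 (0.94), rpp202 (0.90), a ribosomal stalk protein gene, SPBC23G7.14 (0.84) and lys1 (0.83), of lysine synthesis. The 8 points share their depth and scaling, and r is a description. The highest level of each was in Leo1Δ, which follows from a likeness to ptc2, and gal10, chr4 and lys1 reached the level of 5 in that library alone. The gal10 transcript (chromosome 2, 4484023 to 4487569) stood at 5.73 in Leo1Δ and 3.94 in Paf1Δ, against 3.58 in wt. The rpp202 transcript (chromosome 2, 2127990 to 2128518) stood at 7.59 in Leo1Δ and 5.90 in Paf1Δ, against 4.23 in wt, and it overlaps SPBC23G7.14 on the opposite strand. Their levels in Leo1Δ were far under the 11.40 of ptc2. Without Leo1Δ, r was 0.75 for gal10, 0.66 for chr4, 0.71 for rpp202, 0.38 for SPBC23G7.14 and 0.67 for lys1, and 0 of the 5 were among the first 5, so the likeness rests on that library.

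**Figure D5:**
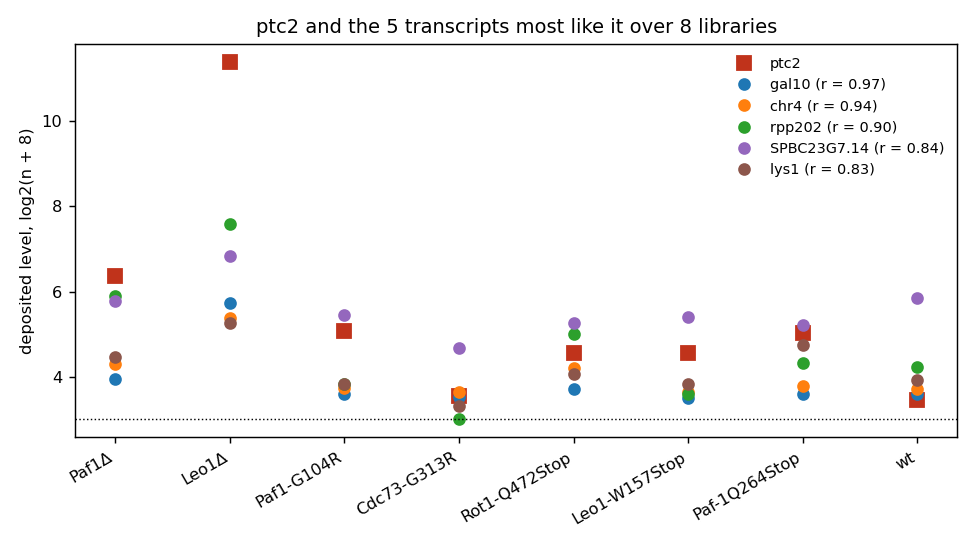
Deposited log2 level (vertical axis) of ptc2 (squares) and of the 5 transcripts with the highest Pearson's r to it (circles) in 8 libraries (horizontal axis, wt right). The dotted line is the floor of 3. Each of the 6 has its highest level in Leo1Δ, at 11.40 for ptc2 and between 5.27 and 7.59 for the others.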

How the data were processed

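The deposited data are a single table with log2 values at 17962 rows (transcripts, UTRs, introns, non-coding and structural RNAs, repeats), 1 column per library. Per the submitters' processing notes, the tools included Bowtie 0.9.9.1 and CASAVA 1.8. The sources used here give no genome build, annotation or counting rule. Every column has its lowest value at 3 and the same linear total after removal of 8, so values are read as log2(n + 8). Multiplied by row length, n is a multiple of the value of 1 read, found by least squares. Between 79.7% and 89.2% of rows above the floor then gave whole read numbers within 0.05. Others hold fractions, which were rounded for intervals. No count model was used.

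Level ratios have 95% exact (Clopper-Pearson) intervals, given the summed reads of both libraries. PCR reads are not independent molecules, so these and the 3-count limit of a zero cover counting error only. Comparisons used a level of at least 5 in the higher library and a difference of at least 1. The wt library is shared by all comparisons. Symbols came from RefSeq, in which 6841 of 7236 identifiers were found. Read recovery was tested on simulated data. Named were ptc2 rows, rows within 10 kb at a level of 5 and the nearest transcripts, the 5 most like ptc2, all PP2C genes, 4 Sty1 pathway genes, and ade6, nmt1 and adh1. Genes outside that rule (bub1, cbf12, dfr1, aro2, the genes of the strain labels, and those with an excess in Leo1Δ) were named after their values were seen. The gene, lists and rules were chosen with earlier results of these data known. Python 3.11.15 with numpy 2.4.6, pandas 2.3.3 and scipy 1.17.1 was used.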

Additional observations from a re-analysis of the deposited data

How the results depend on the processing

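With 1 library per strain, counting error is known and variation between cultures is not, and low rows understate differences because of the floor. No paired analysis was possible because each group has 1 library. The ptc2 transcript stayed above wt in Leo1Δ, Paf1Δ and the 4 point alleles other than Cdc73-G313R under each other scaling and floor tried. A floor of 1 gave differences of 4.26 in Paf1Δ, 9.43 in Leo1Δ, 2.78 in Paf1-G104R, 2.09 in both Rot1-Q472Stop and Leo1-W157Stop and 2.71 in Paf-1Q264Stop. The log2 ratio of reads plus 0.5 gave 4.65, 9.84, 3.13, 2.41, 2.42 and 3.06 in Paf1Δ, Leo1Δ, Paf1-G104R, Rot1-Q472Stop, Leo1-W157Stop and Paf-1Q264Stop. Without UTR reads they were 3.79, 8.98, 2.42, 1.74, 1.83 and 2.38 in the same order. Against the median of the other 7 libraries the differences were 1.79 in Paf1Δ, 6.84 in Leo1Δ, 0.52 in Paf1-G104R and 0.46 in Paf-1Q264Stop, and below 0 in Cdc73-G313R (-1.48), Rot1-Q472Stop (-0.46) and Leo1-W157Stop (-0.46), which follows from 6 of the other libraries being mutants. Recentring by the median difference gave 8.66 in Leo1Δ, 2.10 in Cdc73-G313R and 1.59 in Leo1-W157Stop. The Cdc73-G313R value is not read as a rise, since ptc2 near the floor could not fall as far as that library's shift. In Cdc73-G313R quantile normalization gave 0.90 and a total without structural RNA rows 0.65.

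The lead of ptc2 over its local median with a window of 20 kb was 2.53 in Paf1Δ, 7.34 in Leo1Δ, 1.17 in Paf1-G104R, 0.71 in Leo1-W157Stop, 0.89 in Paf-1Q264Stop, 0.54 in Rot1-Q472Stop and -0.29 in wt. With 5 kb it was 7.51 in Leo1Δ. Against rows of the opposite strand it was 7.74 in Leo1Δ, 1.48 in Paf-1Q264Stop and -0.17 in wt, and against rows of the ptc2 strand 7.51 in Leo1Δ, 1.87 in Paf1-G104R and 0.20 in wt. Lowering the level to 4 or dropping it gave the same counts, because a difference of 1 from the floor reaches 4. Rows higher then numbered 1362 in Paf1Δ, 245 in Leo1Δ, 188 in Paf1-G104R, 171 in Paf-1Q264Stop, 392 in Leo1-W157Stop, 140 in Cdc73-G313R and 411 in Rot1-Q472Stop, against 654, 113, 111, 87, 213, 85 and 202 at a level of 5. Rows lower numbered 921 in Paf1Δ, 403 in Paf1-G104R, 3059 in Cdc73-G313R, 1298 in Leo1-W157Stop and 440 in Paf-1Q264Stop, against 582, 237, 1624, 804 and 289. Of the 5 transcripts most like ptc2, 0 were kept by Spearman's rho and 0 without Leo1Δ.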

Other observations

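Over all 17962 rows, the excess of the Leo1Δ library over the next highest library was largest at the ptc2 5′ UTR, by 5.21 on the log2 scale, and at the ptc2 transcript, by 5.04. The ptc2 3′ UTR had rank 4, by 3.20. These rows share reads, so their ranks are not separate results. Since ptc2 was chosen by its levels in these libraries, its place is tied to that choice and nothing is read from it. The first 12 rows of this order also held SPNCRNA.586, inside ptc2, and 5 UTRs or introns of at most 56 nt. The longer rows outside ptc2 were the gal10 3′ UTR, by 2.57, the rpp202 5′ UTR, by 2.45, and the SPBC23G7.14 5′ UTR, by 2.04.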
